A study of Mus musculus with 11 samples.

Results

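The 6 control libraries of a mouse infarct study form 2 sets of 3, and the gene expression of one set was compared here with that of the other. Control replicates 1 to 3 make up set 1 (control 1, control 2 and control 3) and control replicates 4 to 6 make up set 2 (control 4, control 5 and control 6). They are 6 of the 11 libraries of the study and were picked by their labels and columns, with no measured value used. The study sequenced RNA of cardiac fibroblasts taken from the infarcted left ventricle of mice 3 days after myocardial infarction (MI), in controls and in conditional knockouts labelled Pdgfra-Cre;Pw1fl/fl, which were not used here. For set 1 the labels allow several control genotypes, wild type, Pw1fl/+ or Pw1fl/fl, and do not say which library had which. For set 2 they give Pw1 fl/fl. No Cre is named for either set, and the tissue (heart), the cell type, the treatment and the day after MI are the same in both. The genotype wording and the set coincide in all 6 libraries, so an effect of genotype and any other difference between the sets cannot be told apart. Age, sex and strain are not in the labels, and nothing states that the replicates came from separate animals, so the p-values measure the spread between these libraries only.

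Pw1, also named Peg3, is an imprinted gene that is read from the paternal copy and encodes a large zinc finger protein. A floxed allele carries target sites for the Cre recombinase around part of a gene and is meant to work normally until Cre is present. In the first days after an infarct, cardiac fibroblasts proliferate, take up inflammatory signals and turn to the secretion of matrix, which loads the endoplasmic reticulum (ER) and the vesicle traffic of the cell. Control animals set the baseline for every knockout comparison in such a study, and the spread between control sets shows how far that baseline itself moves.

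The table as read held 1293 complete genes, of which 1211 had a value in all 6 control libraries. It broke off within 1 further line, whose gene was left out, and it held only part of the genes of the mouse. The reads on the genes held came to between 611436 and 637764 per library. The total depth recovered from the table was 20732747 to 21146699 reads per library. The genes held carried 2.76% to 2.87% of the TPM of a library. Ranks of abundance, members of gene lists and shares called below therefore hold only among the genes tested here. Pw1 itself and the usual defining markers of fibroblasts, such as Pdgfra and Col1a1, are not analysed here, so the labelled cell type could not be checked against them. In bulk RNA, fewer cells of a type and less RNA per cell cannot be told apart. Gene levels are given in TPM (a length-corrected share of the transcripts in a library) where genes are compared with each other. For the comparison of libraries, levels are given as scaled reads, the reads on a gene after scaling each library by its TMM (trimmed mean of M values) factor.

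The sets separated, and the separation was made of many small differences. The first principal component, with 38.7% of the variance, placed control 1, control 2 and control 3 at -6.56, -5.98 and -5.78 and control 4, control 5 and control 6 at 3.12, 9.58 and 5.61. Between libraries of different sets, the median absolute log2 difference over 692 genes was 0.190 to 0.223, against 0.0885 to 0.0929 within set 1 and 0.0933 to 0.128 within set 2. With edgeR's quasi-likelihood test and Benjamini-Hochberg adjustment at 0.05, 187 of 771 genes tested (24.3%) differed between the sets, 96 higher in set 2 (12.5%) and 91 lower (11.8%). In all 187 the 3 libraries of one set lay apart from the 3 of the other, as they did in 329 of the 771 genes (42.7%). The differences were small, with a median absolute log2 difference of 0.32 among the genes called. Only 22 genes reached 1.5-fold, 12 of them higher in set 2, and 12 of these 22 carry predicted gene names. The genes nearest to the threshold were Alg9, just inside with an edgeR adjusted p of 0.0493, and Gm2026, just outside with 0.0502.

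1 library stood apart within its own set. Control 4 lay at -9.78 on the second principal component, which held 20.7% of the variance, while control 5 lay at 5.37 and the others between 0.452 and 2.15. In transcripts shorter than 1000 nucleotides it was lower than its 2 partners, with a median log2 ratio of -0.34 over 53 genes, and its mean transcript length was the longest of the 6 at 2294 nucleotides. Without control 4, 205 genes were called, and 164 of the 187 were among them. No 2 libraries agreed within sampling noise: chi-square per degree of freedom was 2.14 to 8.17 within the sets and 13.04 to 16.5 across them.

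Among the named genes with the largest differences were Ptpn23 and Ahnak2, lower in set 2, and Zfp119a and Ap1s2, higher in set 2. The named genes were picked among called, sufficiently covered genes without overlap between the sets and without a predicted gene name. The lack of overlap in each of them therefore follows from the rule. Ptpn23 encodes a large phosphatase-like protein of the endosomal sorting machinery. It gave 4443, 4237 and 4198 scaled reads in control 1 to control 3 and 2729.8, 2427 and 2648 in control 4 to control 6. Every set 2 library was far below every set 1 library, and the log2 difference was -0.72 (SE 0.0494, edgeR adjusted p = 1.74e-04, n = 3 per set). Ahnak2, a giant scaffold protein, gave 5263, 4965 and 4875 scaled reads in set 1 and 3725, 3249 and 3340.0 in set 2. The groups did not overlap, and the log2 difference was -0.55 (SE 0.0566, edgeR adjusted p = 5.71e-04). On the higher side the counts were mostly smaller. Zfp119a, a zinc finger gene, gave 53.6, 62.2 and 61.8 scaled reads in set 1 and 107, 103 and 90.5 in set 2. All 3 set 2 libraries were higher, with a log2 difference of 0.76 (SE 0.134, edgeR adjusted p = 0.00545). Ap1s2, a small subunit of the clathrin adaptor that sorts cargo at the Golgi and endosomes, gave 959, 791 and 896 scaled reads in set 1 and 1231, 1266 and 1292 in set 2. Again no library crossed between the sets, and the log2 difference was 0.52 (SE 0.0680, edgeR adjusted p = 0.00156).

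The coding sequences of 3 of these genes illustrate a contrast in base composition. The 3 were picked by the GC content of their transcripts, so the contrast between them follows from the choice and is not a further result. Ahnak2 and Ptpn23 have the most GC-rich transcripts of the 10 largest falls, and Zfp119a one of the most GC-poor of the 10 largest rises. Each line gives 90 bases from the middle of the gene's longest coding exon in the GENCODE M21 annotation of GRCm38, read 5′ to 3′ on the gene's strand, with G and C in capitals and A and T in lower case.
Ahnak2, lower in set 2, exon 7, chr12:112783258-112783347, minus strand: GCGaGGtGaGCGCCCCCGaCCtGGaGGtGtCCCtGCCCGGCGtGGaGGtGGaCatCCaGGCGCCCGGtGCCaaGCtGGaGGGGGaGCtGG
Ptpn23, lower in set 2, exon 20, chr9:110387647-110387736, minus strand: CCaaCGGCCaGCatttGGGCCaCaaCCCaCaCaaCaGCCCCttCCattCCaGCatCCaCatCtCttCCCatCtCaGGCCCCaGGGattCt
Zfp119a, higher in set 2, exon 4, chr17:55865884-55865973, minus strand: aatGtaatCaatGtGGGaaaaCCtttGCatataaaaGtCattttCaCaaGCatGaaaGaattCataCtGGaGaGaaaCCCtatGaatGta
G and C made up 74.4% of the Ahnak2 stretch and 57.8% of the Ptpn23 stretch, against 32.2% for Zfp119a. Over their whole transcripts the GC content was 61.3%, 58.3% and 38.1% in the same order.

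Over the 646 genes with a GC value, the median difference was positive for GC-poor transcripts and negative for GC-rich ones. Among 72 genes with a transcript GC content up to 42%, 28 were called higher in set 2 and 1 lower, and the median log2 difference was 0.31. In the class above 54% the counts turned round: 1 of 227 genes was called higher and 53 lower, with a median of -0.16. The 3 classes between them ran in order. Above 42% and up to 46%, 27 of 96 genes were higher and 7 lower (median 0.13). Above 46% and up to 50%, 23 of 124 were higher and 5 lower (median 0.089), and above 50% and up to 54%, 8 of 127 were higher and 18 lower (median -0.031). The median GC content was 43.95% for the 87 higher genes with a GC value, 55.8% for the 84 lower ones and 51.5% for the 475 not called. As a description across genes, Spearman's rho between the set difference and GC content was -0.53 over 646 genes and -0.51 without control 4. These genes share the same 6 libraries and are not independent. Between the set difference and transcript length, rho was -0.038 over 738 genes.

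**Figure D1:**
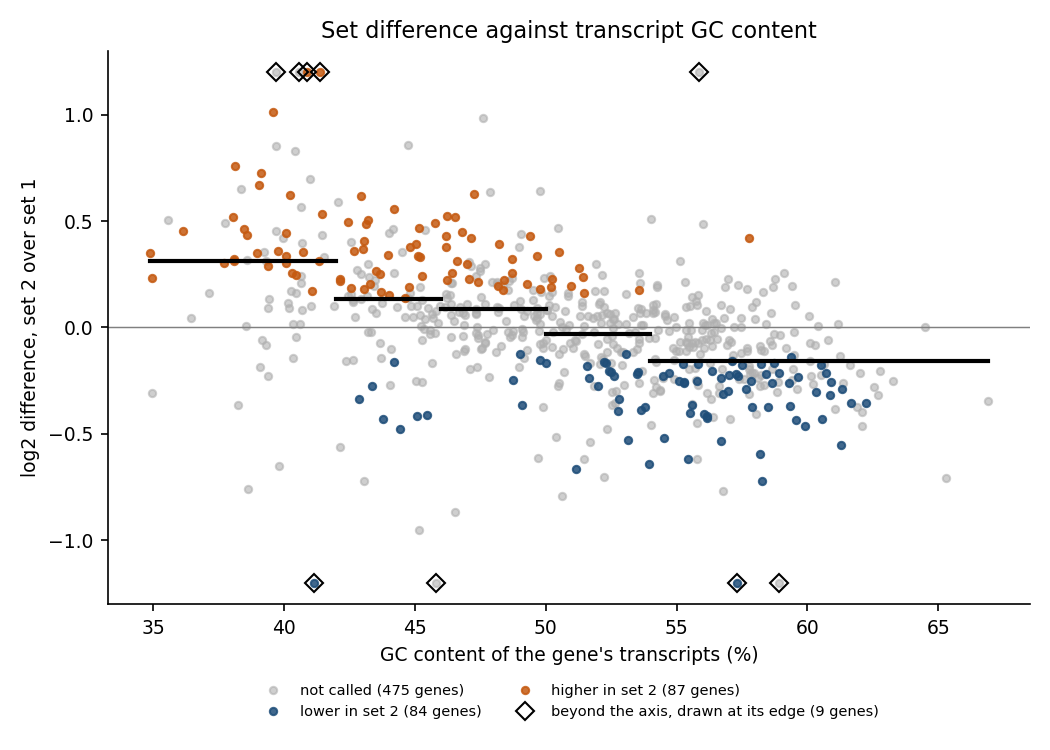
Each point is 1 of 646 genes, with the GC content of its transcripts in percent on the x axis and the log2 difference of set 2 over set 1 on the y axis; black bars are the medians of the 5 GC classes, and 9 genes beyond 1.2 are drawn at the edge with a diamond. The medians step down from 0.31 in the class up to 42% to -0.16 in the class above 54%.

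The libraries were also described 1 at a time. The slope of log2 count on GC content over 621 genes, per 10 points of GC, was 0.156, 0.0859 and 0.199 in control 1 to control 3 and -0.0401, -0.0762 and -0.103 in control 4 to control 6. All set 1 slopes were positive and all set 2 slopes negative, so the sets did not overlap. The means were 0.147 ± 0.0569 and -0.073 ± 0.0314 (SD, n = 3 each), a difference of -0.22. The exact permutation test, 2-sided, gave p = 0.1, the smallest value that 3 libraries against 3 allow. The slope on transcript length did not separate the sets, at 0.597 ± 0.0345 and 0.589 ± 0.0466 log2 counts per doubling of length (SD, n = 3 each, exact permutation p = 1). Nor did the mean transcript length of the library, at 2232 ± 35.2 and 2210 ± 73.0 nucleotides (SD, n = 3 each, exact permutation p = 0.6). The cause of the GC pattern was not tested.

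**Figure D2:**
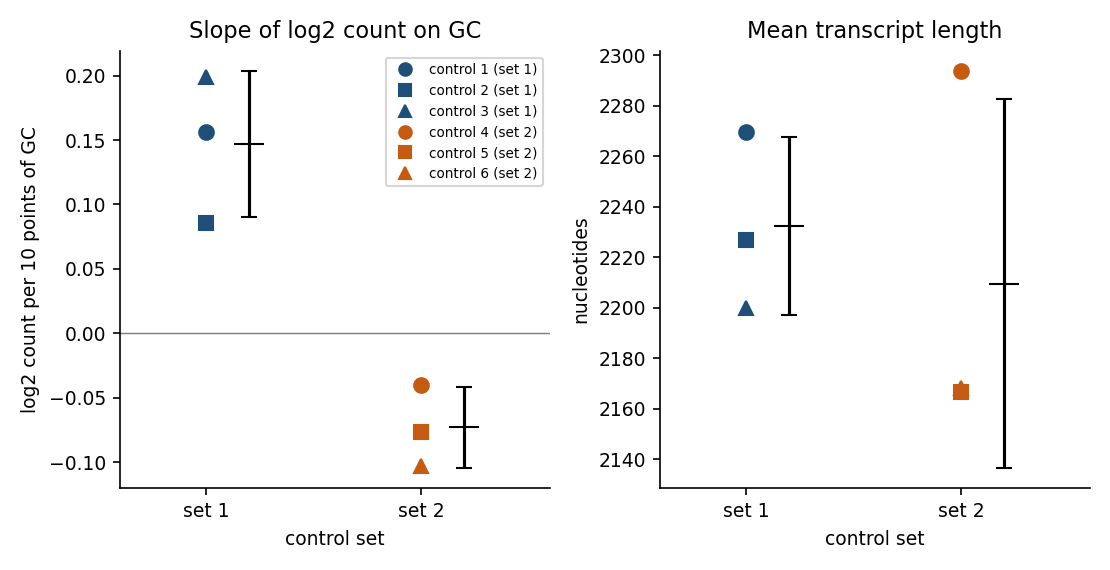
The left panel plots, for each library, the slope of log2 count on transcript GC content per 10 points of GC, and the right panel the mean transcript length in nucleotides on an axis that does not start at 0; the crosses and bars are the mean and SD of each set of 3. The slopes of set 1 lie between 0.0859 and 0.199 and those of set 2 between -0.103 and -0.0401, while the mean lengths of the sets overlap.

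To see which differences were larger than this trend, a smooth GC trend was removed from each library and the test was run again. On that scale 136 of 646 genes (21.1%) were called, 77 higher and 59 lower in set 2. Without the trend removal, a fit to the same 646 genes called 189 (29.3%). Of the genes called in the fit of 771 genes, 171 could be tested again. Of these 171, 83 were called again and 0 had turned to the opposite side. A further 53 genes were called that had not been called in the fit of 771 genes. Below, a value on this scale is named GC-adjusted.

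Of the 20 named genes with the largest differences, 10 in each direction, 18 were called again on the GC-adjusted scale. Mbnl2, a muscleblind splicing regulator and the most abundant of the 10 higher genes at a mean of 128 TPM, gave 4393, 4374 and 4085 scaled reads in set 1 and 6273, 5915 and 6204 in set 2. The sets were well apart (log2 difference 0.52, edgeR adjusted p = 1.74e-04; GC-adjusted 0.41, adjusted p = 4.08e-04). Cth encodes cystathionine gamma-lyase, which makes cysteine from cystathionine. It gave 129, 157 and 134 scaled reads in set 1 and 219.5, 225 and 201 in set 2, with no overlap (log2 difference 0.62, edgeR adjusted p = 0.00417; GC-adjusted 0.46, adjusted p = 0.00983). Nsun3, which methylates a mitochondrial transfer RNA, gave 283, 254 and 242 scaled reads in set 1 and 339.8, 387 and 395 in set 2. Here too all of set 2 was higher, at a log2 difference of 0.53 (edgeR adjusted p = 0.00465). The other higher genes were Yy2, a zinc finger transcription factor gene that lies inside Mbtps2, at 0.67, Umad1 at 0.56, the zinc finger gene Zfp955b at 0.53 and the glycolipid glycosyltransferase gene B3gnt5 at 0.51. Ddb2, which recognises ultraviolet damage in DNA, stood at 0.63 (edgeR adjusted p = 0.0433). With 27.5 to 50.1 scaled reads per library it was the least covered of the 20, and it was called again in only 1 of the 6 fits that left out a library. On the GC-adjusted scale Ddb2 (0.53, edgeR adjusted p = 0.0717) and Ap1s2 (0.24, adjusted p = 0.121) were not called.

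The 10 lower genes were mostly well covered. Srcap, the ATPase of a chromatin remodelling complex, gave 4028, 3842 and 3705 scaled reads in set 1 and 2560.4, 2342 and 2509 in set 2. No set 2 library came near set 1 (log2 difference -0.64, edgeR adjusted p = 1.74e-04; GC-adjusted -0.56, adjusted p = 3.91e-04). Numa1, which organises the spindle poles, gave 2657, 2433 and 2450.0 scaled reads in set 1 and 1800.5, 1719 and 1733 in set 2. The gap was of the same kind, at a log2 difference of -0.52 (edgeR adjusted p = 2.37e-04). Synpo, an actin-associated protein, gave 1228, 1214 and 1156 scaled reads in set 1 and 816, 783 and 781 in set 2, and was lower in every set 2 library (log2 difference -0.60, edgeR adjusted p = 1.74e-04). Mdn1, a giant ATPase of ribosome assembly, was an exception to the GC trend: its transcripts hold 44.4% GC, and yet it was lower in set 2 at -0.48 (edgeR adjusted p = 0.00323), or -0.60 GC-adjusted. Gas8, a subunit of the dynein regulatory complex, stood at -0.62, Tecr, a reductase of fatty acid elongation, at -0.53, and Xylb, which phosphorylates xylulose, at -0.53. Xylb was called in only 2 of the 6 fits without a library. Tecr was lowest in control 4, with 755, 871 and 973 scaled reads in set 2 against 1288, 1212 and 1265 in set 1. Cd300ld4, of a family of myeloid cell receptors, gave 442, 465 and 551 in set 1 and 309.8, 305 and 306 in set 2 (log2 difference -0.66, edgeR adjusted p = 0.00175). Cd300ld4 and Zfp955b belong to groups of closely similar genes, and Cd300ld4 overlaps Cd300c2 and Cd300ld2 in the annotation, so the split of reads between copies is uncertain. Strand use in the counting is not given in the sources used here, so reads of overlapping genes, such as Ddb2 with Acp2 or Ap1s2 with Zrsr2, could also be shared.

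**Figure D3:**
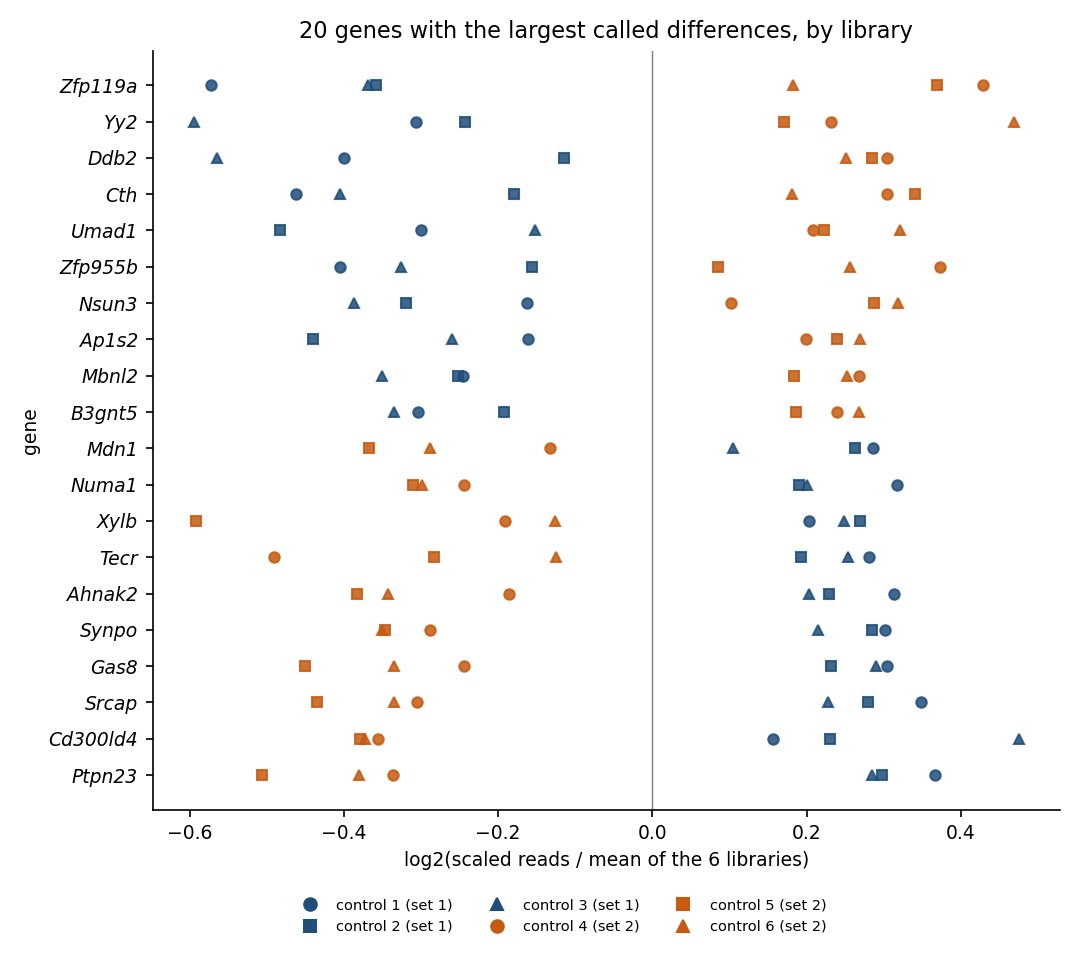
For the 20 named genes with the largest differences, each row shows the 6 libraries as log2 of scaled reads over the mean of the 6, in blue for set 1 and orange for set 2. In all 20 rows the 3 blue and the 3 orange points lie on opposite sides of 0. The rule that picked these genes asked for no overlap between the sets, so their separation is not a further result.

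The extracellular matrix genes held were mostly lower in set 2, and their differences were smaller on the GC-adjusted scale. Of 8 matrix genes tested, 5 were called lower and 1 higher, against 11.8% lower and 12.5% higher among all genes, and their median log2 difference was -0.27 (-0.0078 over all genes). Emilin1, an elastic fibre glycoprotein, gave 2858, 2709 and 2728 scaled reads in set 1 and 2070.2, 2016 and 2045 in set 2. All of set 2 was lower (log2 difference -0.44, edgeR adjusted p = 1.74e-04), and the GC-adjusted value was -0.21 (adjusted p = 0.00983). Ltbp4, which binds latent TGF-beta to elastic fibres, gave 5561, 5084 and 5237 scaled reads in set 1 and 4424, 4157 and 3831 in set 2 (log2 difference -0.36, edgeR adjusted p = 0.00389). The collagen gene Col16a1 gave 3149, 3023 and 3019 in set 1 and 2611, 2434 and 2486 in set 2 (log2 difference -0.29, edgeR adjusted p = 0.00177). In both, the sets did not overlap. The GC-adjusted values were -0.090 for Ltbp4 (edgeR adjusted p = 0.243) and -0.037 for Col16a1 (adjusted p = 0.652). Chpf2, which builds chondroitin chains, stood at -0.26 (edgeR adjusted p = 0.00389; GC-adjusted -0.011). Among the secreted metalloproteases, Adamts7 was lower (-0.29, edgeR adjusted p = 0.0217), Adamts6 was higher (0.26, adjusted p = 0.0135) and Adamts9 was not called (-0.020, adjusted p = 0.840). Spon2 was not called (0.022). The GC content was 43.5% for Adamts6 and 57.6% for Adamts7, and on the GC-adjusted scale Emilin1 alone of the 8 was called, with a median of -0.052 over the 8.

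The listed markers of other cell types gave 2 calls with all libraries, both lower in set 2. Genes of blood cells named further below are not counted here. Of those, Nckap1l and Fermt3 were called lower and Pld4 was not called. The markers tested were Cd300ld4, Ly6c2, Mmrn2, Hbb-bs and Ankrd1, and over all genes the share called was 24.3%. Ly6c2, a monocyte surface protein, was at 209, 205 and 203 TPM in set 1 and 189, 211 and 235 TPM in set 2, overlapping between the sets (0.083, edgeR adjusted p = 0.610). It was called higher in set 2 at 0.19 without control 4 (edgeR adjusted p = 0.0290, between 0.133 and 0.893 under the other alternatives). Of the 3 macrophage and monocyte marker genes held, 2 were tested: Cd300ld4 was lower, as given above, and Ly6c2 was not called with all libraries. Mmrn2, an endothelial matrix protein, was lower (-0.22, edgeR adjusted p = 0.00765; GC-adjusted -0.13, adjusted p = 0.0950). The adult globin gene Hbb-bs (-0.48, edgeR adjusted p = 0.166) and the cardiomyocyte gene Ankrd1 (-0.10, adjusted p = 0.455) were not called. Hbb-bs held 34.3 to 75.5 scaled reads per library. The part of other cell types in the set difference was not tested.

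Of the 10 inflammatory and imprinted genes tested, 2 were called, against 24.3% of all genes. Of 6 interferon response genes tested, Gbp6, a guanylate-binding protein, was higher in set 2 (0.22, edgeR adjusted p = 0.0384) and 5 were not called. Gbp6 was not called on the GC-adjusted scale (0.023, edgeR adjusted p = 0.875), and Mndal, an interferon-inducible gene, was called lower (-0.32, adjusted p = 0.0156, against -0.059 before). Isg15, the ubiquitin-like interferon-induced protein, gave 1509, 1568 and 1683 scaled reads in set 1 and 1123, 1805 and 1884 in set 2. Control 4 was the lowest of the 6 and control 6 the highest, so the spread within set 2 covered the whole of set 1 (0.015, edgeR adjusted p = 0.964). It was called higher in set 2 at 0.22 without control 4 (edgeR adjusted p = 0.0152, between 0.394 and 0.990 under the other alternatives). In the list of cytokine and receptor genes, Tnfaip8, which is itself neither, was higher (0.19, edgeR adjusted p = 0.0360). The receptor gene Il1rl2 was not called (0.012, edgeR adjusted p = 0.888). The imprinted genes Inpp5f (0.10, edgeR adjusted p = 0.280) and Dio3 (-0.27, adjusted p = 0.639), the 2 members of the imprinted list held, were not called, nor by DESeq2, by limma-voom or at an unadjusted p under 0.05.

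Metabolic enzymes split by gene. The counts of calls below stand against 24.3% of 771 genes before the GC adjustment and 21.1% of 646 genes after it. Those 646 genes gave 29.3% without it. Of 7 enzymes of serine, one-carbon and sulphur amino acid metabolism, Cth and Psat1 were higher and Shmt2 was lower. Psat1, which makes phosphoserine, stood at 0.17 (edgeR adjusted p = 0.0181), and Shmt2, the mitochondrial serine hydroxymethyltransferase, at -0.17 (adjusted p = 0.0203). On the GC-adjusted scale neither was called, at 0.092 and 0.028, while Psph, the phosphatase that releases serine, was called higher (0.27, edgeR adjusted p = 0.0166). Psph was not called with all libraries before that adjustment (0.19, edgeR adjusted p = 0.0637) and was called at 0.24 without control 4 (adjusted p = 0.0110). Acaca, the cytosolic acetyl-CoA carboxylase that starts fatty acid synthesis, gave 1188, 1145 and 1098 scaled reads in set 1 and 891, 904 and 871 in set 2. It was lower in all of set 2 (log2 difference -0.36, edgeR adjusted p = 0.00117) and remained so GC-adjusted (-0.42, adjusted p = 0.00105). Prkaa1, the catalytic AMPK subunit that acts on that enzyme, gave 1434, 1381 and 1300.0 in set 1 and 1664, 1696 and 1724 in set 2. It was higher in all of set 2 (0.31, edgeR adjusted p = 0.00246), but its GC content is 40.1% and its GC-adjusted value was 0.054 (adjusted p = 0.558). The other 3 AMPK genes tested were not called, and neither were Acad11 and Acacb among the lipid enzymes. Tecr, called lower above, is not on the lipid enzyme list. None of 4 respiratory chain genes and none of 4 mitochondrial ribosome genes was called by edgeR with all libraries and no GC adjustment. At an unadjusted p under 0.05 the counts were 0 and 1, by DESeq2 0 and 1 (Mrpl30 in both cases), and by limma-voom 0 and 0. After the GC adjustment Sco2, a copper chaperone of cytochrome oxidase assembly in the respiratory chain list, was called higher (0.41, edgeR adjusted p = 0.0301). Mrpl30 was called higher at 0.32 without control 4 (edgeR adjusted p = 0.00521, between 0.00278 and 0.213 under the other alternatives). In the fit with all libraries and no adjustment the median log2 differences were -0.00073 and 0.052.

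The translation genes included some of the most abundant of the genes tested. Rpl5, a protein of the large ribosomal subunit, was at 1024, 1053 and 1097 TPM in set 1 and 849, 788 and 905 TPM in set 2. It gave 10002, 10490.2 and 11042 scaled reads in set 1 and 8224, 8226 and 9581 in set 2, with every set 2 library lower (-0.28, edgeR adjusted p = 0.0257). Its GC content was 43.4%, and the GC-adjusted difference was larger (-0.43, edgeR adjusted p = 0.00221). The call was kept in 2 of the 6 fits that left out a library. Rpl37rt, a further ribosomal protein gene, was at 83.2 scaled reads in control 4 against 324 to 431 in the other 5 libraries and was not called (-0.70, edgeR adjusted p = 0.301). It was called lower at -0.29 without control 4 (edgeR adjusted p = 0.0230, between 0.203 and 0.534 under the other alternatives). Of 6 aminoacyl-tRNA synthetases, Eprs (-0.16) and Yars (-0.16) were lower and 4 were not called, with a list median of -0.045. The share called over all genes tested was 24.3%. Eprs and Lars were the 2 called lower on the GC-adjusted scale. With all libraries none of 4 translation factors was called by edgeR, DESeq2 or limma-voom (1 at an unadjusted p under 0.05, Eif2b3), with a median of 0.0068. Eif3j2, a subunit gene of initiation factor eIF3, was called higher at 0.21 without control 4 (edgeR adjusted p = 0.00413, between 0.198 and 0.717 under the other alternatives).

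Vesicle traffic genes were called in both directions before the GC adjustment and in 1 direction after it. Of 13 vesicle traffic genes, Ap1s2, Exoc5 and Stx12 were higher in set 2, Snx19 and Vps37c were lower, and 8 were not called, a share called of 5 of 13 against 24.3% of all genes, with a list median of 0.052. GC-adjusted, Stx12 was called higher and the other 12 were not called, Vps37c standing at -0.064 (edgeR adjusted p = 0.540). Stx12, an endosomal membrane fusion protein, gave 1495, 1579 and 1459.8 scaled reads in set 1 and 1828, 1902 and 1986 in set 2. The sets were apart (0.33, edgeR adjusted p = 0.00198) and remained so GC-adjusted (0.22, adjusted p = 0.00638). Exoc5, an exocyst subunit with a GC content of 34.9%, stood at 0.35 (edgeR adjusted p = 7.72e-04) and at 0.085 GC-adjusted (adjusted p = 0.378). Ssr1, a subunit of the ER translocon-associated complex, was the 1 called of 5 ER genes (0.22, edgeR adjusted p = 0.00688). Txndc5, an ER thioredoxin-like protein at a mean of 247 TPM, was not called (0.070, edgeR adjusted p = 0.159). The ER calls were different on the GC-adjusted scale. Ssr1 was not called there (0.14, edgeR adjusted p = 0.0525), Txndc5 (0.17, adjusted p = 0.0105) and the retrieval receptor Kdelr3 (0.19, adjusted p = 0.0349) were called higher, and the chaperone cofactor Dnajc3 was called lower (-0.18, adjusted p = 0.0260).

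Several nuclear and signalling genes were called both before and after the GC adjustment. The share called was 24.3% of 771 genes before it and 21.1% of the 646 genes with a GC value after it. Those 646 genes gave 29.3% without it. Taf9, a transcription coactivator subunit, gave 1046, 1074 and 1002 scaled reads in set 1 and 1335, 1482 and 1391 in set 2. It was higher in every set 2 library (0.43, edgeR adjusted p = 0.00103; GC-adjusted 0.40, adjusted p = 0.00152), and it shares its locus with Ak6. Chd4, the ATPase of the NuRD complex, gave 6738, 6503 and 6075 in set 1 and 4882, 4872 and 4971 in set 2. It was lower throughout (-0.39, edgeR adjusted p = 6.76e-04; GC-adjusted -0.30, adjusted p = 0.00256). Trrap, a scaffold of acetyltransferase complexes, was also lower, at -0.39, and the other 3 of the 6 coactivator genes were not called. Srcap, called lower above, is not on that list. Of 6 histone modifying genes, Mbtd1 was higher (0.31) and Bap1, a tumour suppressor deubiquitinase, was lower (-0.26). Mbtd1 was not called on the GC-adjusted scale (0.089), where Bap1 and Sap18b were called lower. Rhoq, a small GTPase of the Cdc42 group, gave 3036, 3086 and 2963 scaled reads in set 1 and 4204, 3966 and 3976 in set 2. Set 2 was higher by 0.42 (edgeR adjusted p = 2.39e-04; GC-adjusted 0.32, adjusted p = 0.00107). Of the 12 small GTPase regulators tested, Rhoq, Cdc42ep2 and Plekha1 were higher, Arap3, Arhgef18 and Plekho2 were lower, and 6 were not called, with a list median of -0.046. After the GC adjustment Rhoq, Cdc42ep2 and Tbc1d10a were called higher and Arhgef18 lower.

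In the remaining lists the share called was near the background of 24.3% or below it. These shares hold for the listed genes only. Numa1 is not on the cell cycle list and Mbnl2 is not on the splicing list, though both were called, as given above. Kctd9 and Ube3c were the 2 called of 16 ubiquitin and proteasome genes, both higher, and the list median was 0.016. Neither was called on the GC-adjusted scale, where Otub1 and Rnf44 were called higher and Fbxo4, Psme4 and Ubxn8 lower. Mfap1b was the 1 called of 6 splicing factors, lower in set 2. Of 12 solute carriers tested, Slc44a1, a choline transporter, was higher (0.26) and Slc35e4 and Slc6a8 were lower. Slc44a1, Slc15a4 and Slc39a6 were called higher and Slc6a8 lower on the GC-adjusted scale. Of 4 cell cycle genes, Cenpi, a kinetochore protein, was higher (0.50, edgeR adjusted p = 0.0160), and Cdc20, Espl1 and Cenpf were not called (-0.048, -0.31 and -0.26). Cenpf was called lower on the GC-adjusted scale (-0.36, edgeR adjusted p = 0.0255) and at -0.35 without control 4 (adjusted p = 0.0167), and Espl1 was called lower at -0.37 without control 2 (adjusted p = 0.0384). Itga9, an integrin subunit, was lower (-0.28, edgeR adjusted p = 0.00542) and the other 4 adhesion and guidance genes were not called. None of the 7 genes tested on the dynein and cilia list was called by edgeR, DESeq2 or limma-voom (1 at an unadjusted p under 0.05, Ttll3), with a median of -0.25. Gas8, the dynein regulatory complex gene called lower above, is not on that list. Dusp22, the 1 stress gene tested, was not called (-0.019). Of 19 genes of the Zfp list, Zfp119a, Zfp120, Zfp729b and Zfp955b were higher, none lower and 15 not called. On the GC-adjusted scale, with 18 tested, Zfp119a and Zfp955b were called higher and Zfp990 lower. Before that adjustment the median log2 difference of the 19 was -0.12 at a median GC content of 39.9%.

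**Figure D4:**
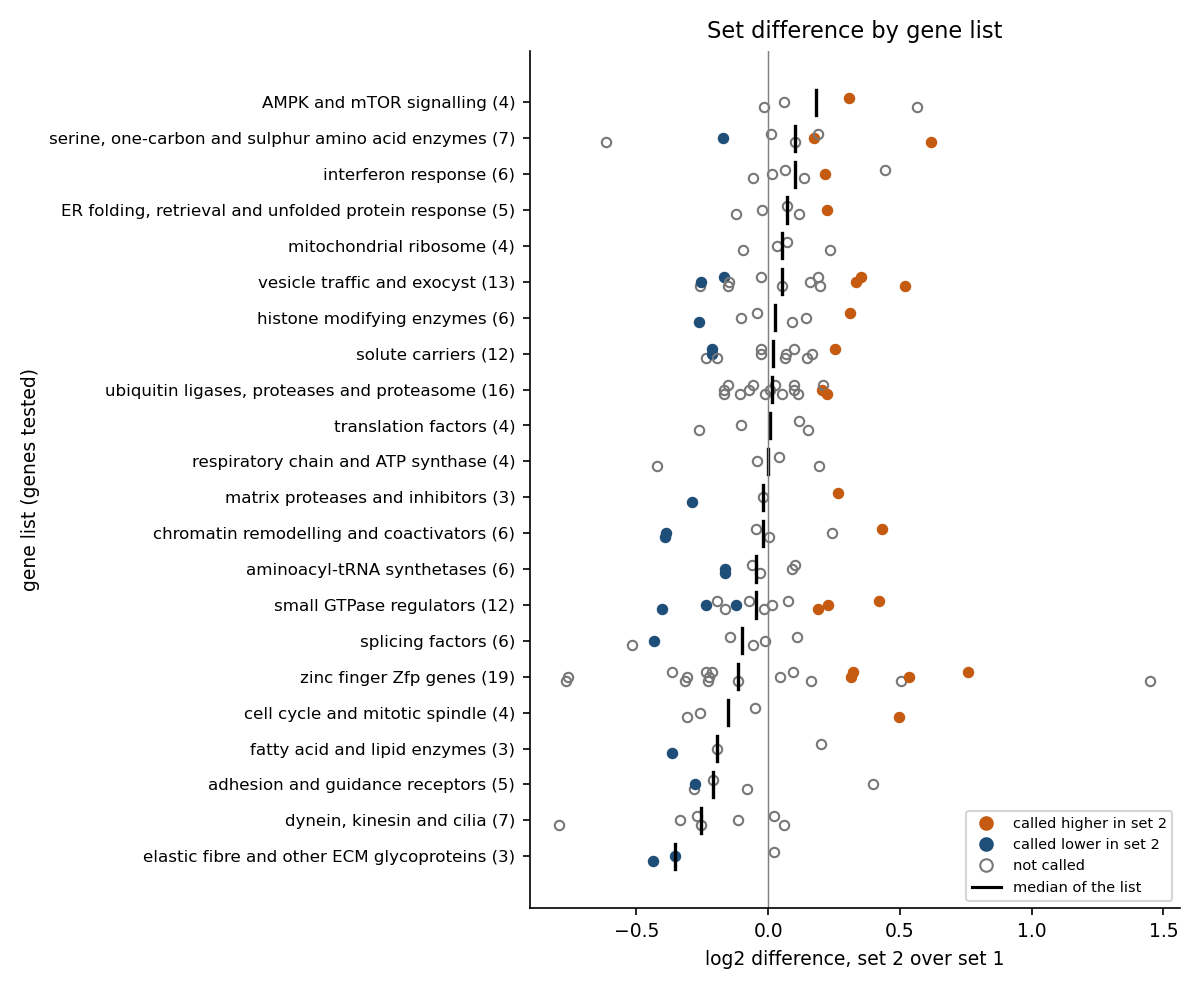
Each row is a gene list with at least 3 genes tested, and each point is 1 gene at its log2 difference of set 2 over set 1, filled where edgeR's test called it; black bars are the medians. The median of the elastic fibre list is -0.36 and that of the AMPK and mTOR list 0.18, while the other lists lie between -0.25 and 0.10.

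Several of the calls named from the lists did not hold with fewer libraries. Of the 6 fits that each left out 1 library, Nckap1l was called in 0, Gbp6, Tnfaip8, Plekho2 and Vps37c in 1, and Adamts7, Eprs, Shmt2 and Cenpi in 2. Psat1 and Fermt3 were called in 4 and Adamts6 in 5.

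The largest folds belonged to predicted genes and genes with near-identical copies, named here after their values were seen. Of the 6 genes called at 2-fold or more, 5 carry predicted gene names, and the other was Amd2. Gm21451 (chr14:69390417-69477453) gave 384, 594 and 156 scaled reads in control 1 to control 3 and 4.01, 0 and 4.11 in control 4 to control 6. Every set 1 library was more than an order of magnitude above every set 2 library (log2 difference -7.06, edgeR adjusted p = 0.00152). Gm3696 (chr14:7074404-7106256) went the other way, with 0, 2.96 and 0 scaled reads in set 1 and 15.04, 22.2 and 23.6 in set 2. With 3 reads in set 1 against 60 in set 2, the ratio was 20.5, with a 95% interval for counting error alone of 6.7 to 102. Amd2, a copy of the polyamine enzyme gene Amd1, gave 16.9, 67.1 and 30.4 scaled reads in set 1 and 10.03, 8.08 and 2.06 in set 2 (-2.48, edgeR adjusted p = 0.0373). It was called in 2 of the 6 fits that left out a library. In a stretch of chromosome 2 from Gm14440 to Gm14295 (chr2:175275125-176814092), 11 genes were tested. Of these 3 were called, all higher in set 2, a share near the 24.3% called of all genes. The 3 were Gm14295 (0.62), Gm14440 (0.73) and LOC102633156 (1.01). RSEM divides reads among near-identical copies, so these levels are uncertain. Among all 198 predicted genes tested, 29 (14.6%) were called, against 24.3% of all genes. The shares were not matched for read count, and a difference of a given size is harder to call at low counts.

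A majority of the abundant genes were steady across all 6 libraries. Of 145 genes with a mean of at least 50 TPM, 83 (57.2%) met a rule for stability: the highest library was at most 25% above the lowest in scaled reads, and the 95% interval of the log2 set difference lay within 0.32 either way. These are descriptions, since the rule chose the genes by their values. The genes nearest the rule's limit were Sft2d1, with a ratio of 1.2499, just inside, and Hat1, with 1.2518, just outside. Of the 145 abundant genes, 59 (40.7%) were called between the sets, 26 higher and 33 lower, against 24.3% of all genes tested. Among the 83 stable genes 21 were called, a share near that of all genes, at differences within the limits of the rule. A difference of a given size is easier to call at high counts, and none of these shares was matched for read count. The stable genes had a median GC content of 52.5%.

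The level most evenly kept was that of Sf3b3, a core subunit of the SF3B splicing complex. It gave 4724, 4802 and 4675 scaled reads in set 1 and 4709.7, 4759.6 and 4603 in set 2, a ratio of 1.04 between the highest and the lowest library, at a mean of 118 TPM. The sets overlapped throughout. Galnt2, which starts mucin-type glycosylation, had a ratio of 1.05, and Rpn1, a subunit of the ER oligosaccharyltransferase, one of 1.06 at 140.2 TPM. The others of the 12 most even genes were the leucyl-tRNA synthetase Lars (1.06), the vesicle fusion adaptor Napa (1.07), the RNA helicase Ddx1 (1.07), the transcription elongation kinase Cdk9 (1.07) and the casein kinase Csnk1d (1.07). Hsd3b7, a bile acid enzyme (1.07), Acly, the ATP citrate lyase that supplies cytosolic acetyl-CoA (1.08), Rab31, a vesicle traffic GTPase (1.08), and Osbpl9, a lipid transfer protein (1.08), complete them. On the GC-adjusted scale 5 of these 12 were called, against 21.1% of all genes tested on it. Galnt2 (0.16, edgeR adjusted p = 0.0253), Hsd3b7 (0.18, adjusted p = 0.0259), Napa (0.15, adjusted p = 0.0324) and Acly (0.15, adjusted p = 0.0371) were higher in set 2, and Lars was lower (-0.12, adjusted p = 0.0449). Of all 83 stable genes, 26 were called on that scale, a higher share than the 21.1% of all genes.

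Among the genes tested, the top of the abundance order mixed steady and moving genes. LOC105244208, an uncharacterised gene that overlaps 2600014E21Rik, was highest at 1718, 1833 and 1744 TPM in set 1 and 1777, 1868 and 1882 TPM in set 2. Rnh1, the cytosolic ribonuclease inhibitor, followed at 1099, 1106 and 1148 TPM in set 1 and 1066, 1165 and 1087 TPM in set 2. Both were stable, with ratios of 1.18 and 1.17 in scaled reads, and their set differences were 0.11 and 0.019. LOC105244208 was called higher at 0.17 without control 4 (edgeR adjusted p = 0.0216, between 0.0105 and 0.540 under the other alternatives). Rpl5 came next and was not stable, as given above. LOC100044627 and LOC100862455 had identical values in every library, at a mean of 826 TPM. They gave 3204, 3338 and 3365 scaled reads in set 1 and 2110.3, 3735 and 3994 in set 2, and the low value was that of control 4. Their set difference was -0.010 with all libraries (edgeR adjusted p = 0.979) and 0.23 without control 4 (edgeR adjusted p = 0.00506), with an adjusted p between 0.381 and 0.998 under the other settings tried. Wfdc17, a small secreted protein at a mean of 579.9 TPM, was also lowest in control 4, at 427 TPM against 595 to 651 TPM in the other 5 libraries, and was not called (-0.14). Slc6a8, the creatine transporter, was at 375, 353 and 366 TPM in set 1 and 316, 304 and 296 TPM in set 2. It was lower in each set 2 library (-0.21, edgeR adjusted p = 0.00241) and still met the rule for stability in scaled reads, at a ratio of 1.198. The rest of the 12 most abundant genes were Rnaset2a at 322 TPM, Plekho2 at 289, Gm20594 at 280.3, Sap18b at 268 and Txndc5 at 247 TPM. Of these 5, Plekho2 was called lower (-0.12) and Gm20594 higher (0.23), and the latter stood at -0.040 GC-adjusted.

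Several stable and abundant genes are best known from blood cells, and they are named here after their values were seen. Nckap1l, a WAVE complex subunit of blood cells, was at a mean of 218 TPM, Pld4, an endolysosomal exonuclease of immune cells, at 199 TPM, and Fermt3, the integrin activator of blood cells, at 102 TPM. Nckap1l gave 234, 239.9 and 221 TPM in set 1 and 211, 201 and 202 TPM in set 2, a small but called difference (-0.13, edgeR adjusted p = 0.0312). Fermt3 was also called lower (-0.18, edgeR adjusted p = 0.00972), and Pld4 was not called (0.098, adjusted p = 0.223). Together with Ly6c2, at a mean of 209 TPM, they were of the same order as Txndc5 at 247 TPM. Which cells of the preparation expressed them was not tested. The secretory machinery was represented by Rpn1, Ssr1 (103 TPM), Qsox1, a disulphide-forming enzyme (100.4 TPM), and Kdelr3, an ER retrieval receptor (63.1 TPM). Translation was represented by the synthetases Rars (224 TPM), Yars (128 TPM), Eprs (115 TPM), Iars (99.01 TPM) and Lars (64.3 TPM), 5 of the 6 held.

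**Figure D5:**
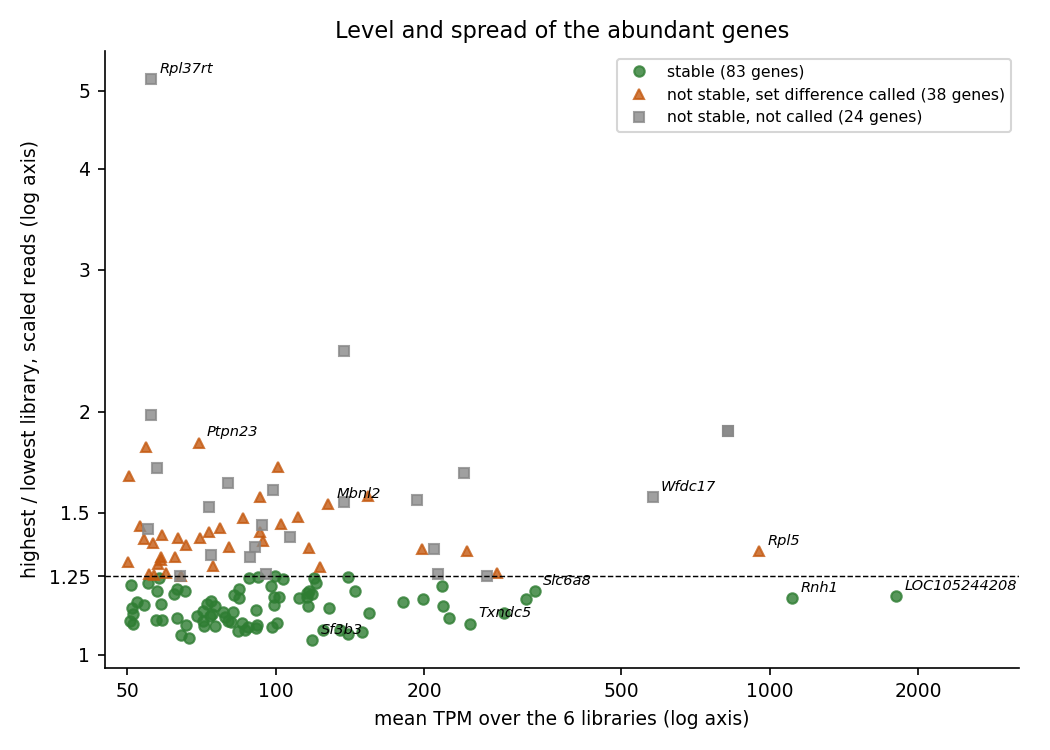
Each point is 1 of the 145 genes with a mean of at least 50 TPM, with its mean TPM on a log x axis and the ratio of the highest to the lowest library in scaled reads on a log y axis; the dashed line is the limit of 25%. The 83 stable genes lie at or under the line, and of the 62 others 38 were called between the sets and 24 were not. Of all genes tested 24.3% were called.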

How the data were processed

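RNA-seq of poly(A)-selected RNA was used, 1 table for all libraries. The values of the 6 control libraries are expected counts, TPM and FPKM per gene as the authors deposited them, per the file headers. The submitters' processing notes name Bowtie2, RSEM and DESeq2 and the build GRCm38, without versions or roles. A further 15 columns of values were not used. Library totals, transcript lengths and the mean transcript length were worked out from the ratios of count, FPKM and TPM.

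Expected counts were rounded and tested with edgeR 4.0.16 (R 4.3.3, TMM factors, filterByExpr by set, robust quasi-likelihood F test, 2-sided, Benjamini-Hochberg adjustment over the 771 genes kept, called under 0.05). DESeq2 1.42.0 and limma 3.58.1 were alternatives. The scripts were tested on simulated data. GC content is the median over a gene's GENCODE M21 transcripts, matched by Entrez gene ID, and its trend was removed by loess with a span of 0.5. RefSeq's GRCm38.p6 table matched 1274 of the 1293 IDs and gave positions. Levels in TPM shift with the other genes of a library, and scaled reads depend on the assumption that most genes do not differ.

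Genes were named by rule: the 10 largest differences in each direction among called genes with an average log2 CPM of at least 1, no overlap between the sets and no predicted gene name, the 12 most abundant genes, the 12 most even abundant genes, and up to 4 members of each gene list. The members, lists and tests were chosen with earlier results of these data known. Of 41 lists, 34 had a gene tested. Genes blank in all 3 set 1 libraries (82) could not be tested. Alternatives were other normalizations and tools, filters, TPM-based tests, trend removal and leaving out each library.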

Additional observations from a re-analysis of the deposited data

Results flagged for a closer look

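The table leaves 82 genes blank in all 3 set 1 libraries and in none of set 2, so they entered no comparison, and 35 of them held a value above 0 in set 2. The 5 with more than 3 expected reads in a set 2 library are given as values. Msmp held 20.98 expected reads in control 4, 7.99 in control 5 and 0 in control 6. The highest set 2 value was 5.1 expected reads for LOC100043918, in control 6. For Gm3642 it was 3.88 and for Gm3194 3.75, both in control 6. For Gm37013 it was 3.12, in control 5. Whether a blank stands for 0 reads in set 1 is not given in the sources used here.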

How the results depend on the processing

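No paired analysis was possible because the control replicates are numbered 1 to 3 in one set and 4 to 6 in the other and share no number. The 187 calls became 193 with DESeq2, 171 with limma-voom, 155 without a filter on low counts and 141 with limma on log2(TPM + 1). They became 80 when that TPM test ran with no filter and 122 after removal of the length and GC trends together. Leaving out 1 library gave 121 to 205 calls, lowest without control 6 and highest without control 4; 122 remained without control 1. In all 6 of these fits 101 of the 187 genes were called. The number of stable abundant genes, 83, was 74 with TPM for the spread, 125 with 1.5-fold limits and 169 from 20 TPM upward. The set difference in length slope changed sign when a library was left out (-0.0353 to 0.00667), and that in GC slope did not (-0.25 to -0.194). For 137 named genes under 19 alternatives, 150 values lost a call, 65 gained one and 16 changed sign where a call was involved. With the GC trend removed, Galnt2 stood at 0.16, Gm20594 at -0.040, Psme4 at -0.27, Rnf44 at 0.18 and Shmt2 at 0.028. With both trends removed, Chpf2 stood at 0.040, Col16a1 at 0.025, Galnt2 at 0.22, Psme4 at -0.27, Rars at -0.15, Rnf44 at 0.23, Shmt2 at 0.045, Unc5b at 0.21 and Vps37c at 0.019. LOC100044627 and LOC100862455 ranged from -0.18 to 0.23 as a library was left out. The trend removals were chosen after seeing the data, and the cause of these changes was not tested. The low-count genes Ddb2, Xylb and Amd2 kept their call in 1, 2 and 2 of the 6 fits that left out a library, the high-count genes Plekho2 and Rpl5 in 1 and 2, and the low-count gene Zfp119a in 6.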
